A study of Mus musculus with 11 samples.

Results

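Among 9 regulators that build the endocrine pancreas, DNA methylation in newborn mouse pancreas was low at all but Pax4, and no difference between pups exposed to amphetamine in utero and saline controls passed correction. The 9 transcription factor genes described here were Pdx1, Nkx6-1, Neurod1, Neurog3, Nkx2-2, Pax4, Pax6, Isl1 and Mafa. They were chosen by symbol from 25802 gene rows, and 8 of them also had 1 of the 24391 promoter rows. Pax4 had none. A CpG island or 5000 bp tile was counted with a gene where it overlapped that gene's promoter or gene row by at least 1 base, which gave 21 of 14841 islands and 27 of 259716 tiles.

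The samples were whole pancreata of 11 wild type C57BL/6N mice at postnatal day 0. Dams of 5 pups (3 females, 2 males) had received amphetamine at 10 mg/kg on embryonic days 14.5, 15.5 and 16.5, and 6 control pups (3 females, 3 males) carry the label Saline. The assay was RRBS (reduced representation bisulfite sequencing). The enzymes MspI and TaqI cut the genome at motifs that contain a CpG, short fragments are sequenced from those cuts, and a methylated cytosine survives bisulfite treatment whereas an unmethylated one is read as thymine. The first question was whether these genes differed in methylation after drug exposure, and the second whether they differed between the 6 females and 5 males among the same pups. The litter of each pup was not used here, so that p-values measure the spread between these pups. In DNA from a whole organ, a change within a cell type and a change in how many cells of that type are present cannot be told apart.

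Islet cells arise from gut endoderm that carries Pdx1, a homeodomain factor needed for the pancreas to form and later for insulin gene expression. A transient pulse of the basic helix-loop-helix factor Neurog3 commits progenitors to the endocrine lineage, and its target Neurod1 continues that programme. Nkx2-2, Pax4, Pax6 and Isl1 then direct the choice and differentiation of hormone-producing cells, whereas Nkx6-1 and Mafa mark β cells, Mafa as a late activator of insulin transcription. Methylation of a CpG-rich promoter usually accompanies stable silencing, and many developmental regulators stay unmethylated even where they are not expressed.

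The sequences just upstream of 3 of these genes show how unequal their CpG content was in the reference genome. The CpGs that RRBS could reach over the whole promoter rows, given further below, followed another order. Each run holds the 200 bases before the gene start listed in the tables, taken from the mouse reference genome (GRCm38, the assembly also called mm10), 5′ to 3′ on the coding strand, with CpG dinucleotides in capitals. They are shown for Pdx1 (chr5:147269759-147269958, plus strand), Nkx6-1 (chr5:101664997-101665196, minus strand) and Neurod1 (chr2:79456752-79456951, minus strand), whose promoter had the highest methylation of the 8 over all pups (in saline pups that of Isl1 was higher).
Pdx1: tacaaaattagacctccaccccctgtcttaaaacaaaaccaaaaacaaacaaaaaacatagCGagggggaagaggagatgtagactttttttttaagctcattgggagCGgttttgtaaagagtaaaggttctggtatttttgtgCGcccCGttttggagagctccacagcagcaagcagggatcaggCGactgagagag
Nkx6-1: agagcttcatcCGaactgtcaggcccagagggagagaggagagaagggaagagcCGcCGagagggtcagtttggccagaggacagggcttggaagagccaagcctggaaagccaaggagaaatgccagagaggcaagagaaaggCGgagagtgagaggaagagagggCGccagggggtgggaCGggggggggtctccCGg
Neurod1: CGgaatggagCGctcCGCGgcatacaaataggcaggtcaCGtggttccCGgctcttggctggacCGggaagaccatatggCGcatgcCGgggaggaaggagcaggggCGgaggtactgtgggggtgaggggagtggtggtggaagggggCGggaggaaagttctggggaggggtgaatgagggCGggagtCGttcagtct
The Neurod1 run held 13 CpGs and 3 CCGG sites, the motif that MspI cuts. Nkx6-1 held 7 CpGs with 1 CCGG site, and Pdx1 held 5 CpGs with 0. None of the 3 runs contained TCGA, the TaqI site. Both motifs read the same on the opposite strand. Among all promoter rows of 2000 bp, 82.4% held TCGA and nearly all held CCGG.

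Promoter rows ran from 1500 bp upstream of the gene start to 500 bp downstream, with the start base counted in the latter. CpG sites within 50 bp of a cut site in the reference were counted as reachable. Mafa had 161 CpGs in its promoter row, of which 130 were reachable, the most of the 8. Next came Nkx2-2 with 106 of 135, Nkx6-1 with 82 of 123, Isl1 with 67 of 104 and Pax6 with 55 of 78. Fewest were reachable for Neurog3 (32 of 61), Pdx1 (28 of 60) and Neurod1 (25 of 56), against a median of 31 over all promoter rows. The window that would be the Pax4 promoter held 15 CpGs, 4 of them reachable, and 6.01% of promoter rows held 15 or fewer. For Nkx2-2 the row started from an upstream transcript start: all 2000 bp lay upstream of the protein-coding transcripts in GENCODE M21 and overlapped the antisense gene Nkx2-2os, so that its values describe that upstream stretch. In the other 7 rows 1500 bp lay upstream of the protein-coding transcripts, except for Mafa, where 1194 bp did, and 500 bp was coding and 306 bp untranslated.

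All 8 promoters were weakly methylated in both groups. Their median over the pups was 3.78%, against 8.33% for all promoter rows, and mean coverage, summed over the CpGs of a region, ran from 224.4 for Neurod1 to 1031 for Mafa in exposed pups. In the limma test none of 8 passed an adjusted p under 0.05 (background 0.0164% of 24391 promoters), and 1 of 8 had an unadjusted p under 0.05 (background 4.12%). Exposed means were higher for 4 promoters and lower for 4, with a median difference of 0.0406 percentage points, beside 0 over all rows. In none of the 8 did the groups' ranges separate, which happened for 0.395% of the 21012 promoters with reads in all pups.

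Neurod1 had the largest difference of the 8 and was the promoter with an unadjusted p under 0.05. Its promoter (ENSMUSG00000034701, chr2:79456252-79458251) was methylated at 13.1% ± 5.58 (SD, n = 5) in exposed pups, from 6.11% to 19.5%. In saline pups it was methylated at 5.07% ± 3.88 (SD, n = 6), from 0% to 11.8%. The ranges overlapped between 6.11% and 11.8%. The difference was 8.04 percentage points (SE 2.76, 95% interval 1.88 to 14.2) and did not pass the correction over all promoters (adjusted p = 0.958). The highest value belonged to an exposed female and the lowest to a saline male. The highest male value, 18.0%, lay above every saline pup and was therefore also that of an exposed pup.

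The Neurod1 difference depended on which stretch around the gene start was read. The CpG island at the start (chr2:79456619-79457022) held 21 of the 25 reachable CpGs, with 3 more upstream of it and 1 downstream. It was methylated at 5.46% ± 5.07 (SD, n = 5) in exposed and 1.97% ± 2.43 (SD, n = 6) in saline pups. That difference of 3.49 percentage points had a 95% interval of -1.48 to 8.45 (adjusted p = 0.923), and leaving out 1 pup could bring it to 1.72. Outside the island, mean coverage was 89.6 of 224.4 in exposed and 126.7 of 266.3 in saline pups. The gene row held only the reads of another, mostly coding island. No promoter read therefore came from the 1 downstream CpG or from the part of the start island inside the gene row. In the 5000 bp tile that holds the start (chr2:79455001-79460000), exposed pups measured 6.99% ± 2.02 (SD, n = 5) and saline pups 5.45% ± 3.21 (SD, n = 6), a difference of 1.54 percentage points (95% interval -2.74 to 5.82). The Neurod1 locus overlaps Cerkl and Gm26755, so that these reads cannot be given to Neurod1 alone.

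For the progenitor factor Pdx1 (ENSMUSG00000029644, chr5:147268459-147270458), promoter methylation was 4.51% ± 2.89 (SD, n = 5) in exposed and 3.25% ± 3.51 (SD, n = 6) in saline pups. The difference of 1.26 percentage points had a 95% interval of -3.03 to 5.55. Saline pups spanned 0% to 10.1%, wider than exposed pups at 0% to 7.74%. Neurog3 (ENSMUSG00000044312, chr10:62131590-62133589), the switch for endocrine fate, measured 3.06% ± 2.10 (SD, n = 5) against 2.89% ± 3.62 (SD, n = 6). Its difference was 0.167 percentage points (95% interval -3.87 to 4.20).

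The promoters of the differentiation factors lay close together. Nkx2-2 (ENSMUSG00000027434, chr2:147193744-147195743) had 1.99% ± 1.70 (SD, n = 5) in exposed and 2.07% ± 1.31 (SD, n = 6) in saline pups, the smallest difference of the 8 in size (95% interval -2.20 to 2.03 percentage points). Pax6 (ENSMUSG00000027168, chr2:105667400-105669399) measured 4.18% ± 1.02 (SD, n = 5) against 3.35% ± 2.15 (SD, n = 6), with an interval of -1.58 to 3.24. Isl1 (ENSMUSG00000042258, chr13:116309190-116311189) was at 5.15% ± 3.08 (SD, n = 5) and 5.48% ± 3.54 (SD, n = 6), with an interval of -4.74 to 4.08. In each of the 3 the groups overlapped.

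Both β cell factors had lower promoter means in exposed pups, within the spread. Nkx6-1 (ENSMUSG00000035187, chr5:101664497-101666496) measured 3.48% ± 1.65 (SD, n = 5) against 4.39% ± 2.37 (SD, n = 6), a difference of -0.913 percentage points (95% interval -3.74 to 1.91). For Mafa (ENSMUSG00000047591, chr15:75747423-75749422) the values were 2.06% ± 0.548 (SD, n = 5) and 3.05% ± 1.16 (SD, n = 6), a difference of -0.993 percentage points (interval -2.47 to 0.489, adjusted p = 0.958). Exposed pups reached 2.52% for Mafa at most, whereas the highest saline pup stood at 4.18%.

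**Figure D1:**
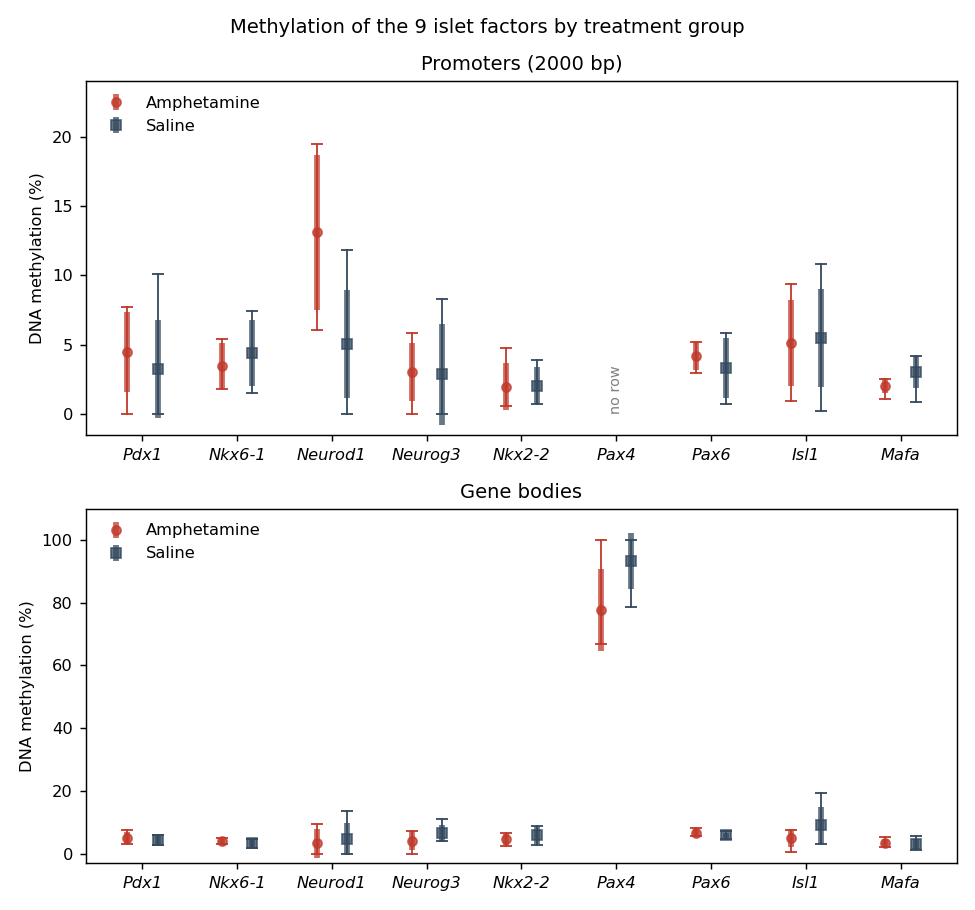
Methylation (%) of the promoters (top, axis to 24%) and gene bodies (bottom, axis to 110%) of the 9 genes in exposed (red circles, n = 5) and saline pups (blue squares, n = 6). Symbols are group means, thick bars the SD, and capped thin lines run from the lowest to the highest pup. Neurod1 is the 1 promoter with a mean above 10%, and Pax4 the 1 gene body above 10%.

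Gene bodies were low like the promoters, with Pax4 as the exception. Each promoter row shares 500 bp with its gene row, so that both levels can rest partly on the same reads. Over all gene rows the median methylation was 53.1%, whereas 8 of the 9 genes had group means from 2.92% (Mafa, saline) to 8.97% (Isl1, saline). None of 9 passed the adjusted threshold (background 0.0116% of 25802 genes), and 1 of 9 had an unadjusted p under 0.05 (background 4.38%). The groups overlapped in all 9 (background of separated groups 0.312%). Exposed means were higher in 4 genes and lower in 5, with a median difference of -1.22 percentage points, beside -0.0852 over all gene rows.

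Pax4, which promotes β and δ cell fate, was the gene with an unadjusted p under 0.05. Its gene row (ENSMUSG00000029706, chr6:28442334-28449353) was methylated at 77.6% ± 13.1 (SD, n = 5) in exposed pups, from 66.8% to 100%. In saline pups it was at 93.3% ± 8.84 (SD, n = 6), from 78.6% to 100%. The groups overlapped from 78.6% upward. The difference of -15.7 percentage points (SE 6.26, 95% interval -29.7 to -1.81) did not pass the correction (adjusted p = 0.984). Coverage was thin here, with group means of 145.6 and 101.0 and 33 in the least covered saline pup. The row had 19 reachable CpGs, but all its reads lay within the tile chr6:28445001-28450000, which had 14. The 7020 bp row was mostly intron (5650 bp), with 1047 bp of coding sequence and no CpG island. The tile chr6:28445001-28450000 held the same reads and values, and is no second measurement.

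Isl1 had the next largest gene body difference. Exposed pups measured 5.06% ± 2.88 (SD, n = 5) and saline pups 8.97% ± 5.85 (SD, n = 6), the latter reaching 19.2%. The difference was -3.91 percentage points (95% interval -10.2 to 2.35, adjusted p = 0.984). Neurog3 was at 4.14% ± 2.96 (SD, n = 5) against 6.43% ± 2.78 (SD, n = 6), with an interval of -6.30 to 1.71 percentage points. The gene bodies of Pdx1, Nkx6-1, Pax6, Mafa, Nkx2-2 and Neurod1 differed by between -1.30 and 0.818 percentage points. Most narrowly bounded was Pax6, at 6.57% ± 1.17 (SD, n = 5) against 5.75% ± 0.822 (SD, n = 6) with an interval of -1.30 to 2.94, on mean coverage of 2659 and 2177. The Neurod1 row, its coding island and the tile chr2:79450001-79455000 held the same reads, and are 1 measurement. In the Nkx2-2 row, 7839 of 16698 bp lay upstream of the protein-coding transcripts.

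CpG islands overlapped 8 of the 9 genes, from 1 each for Isl1 and Mafa to 7 for Pax6. Their median methylation was 2.92%, close to the 2.07% of all islands. None of 21 passed the adjusted threshold (background 0.0202% of 14840 tested islands), and 1 had an unadjusted p under 0.05 (background 4.11%). Of the 18 islands with reads in all pups none had separated groups (background 0.443%). Exposed means were higher in 13 and lower in 8, with a median difference of 0.339 percentage points.

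The island with the smallest p, named after its values were seen, lay in the coding sequence of Pdx1 (chr5:147274598-147274821). It was methylated at 5.92% ± 3.33 (SD, n = 5) in exposed pups, from 2.84% to 11.4%, and at 2.48% ± 1.47 (SD, n = 6) in saline pups, from 0% to 4.51%. The difference was 3.44 percentage points (SE 1.44, 95% interval 0.215 to 6.66, adjusted p = 0.923). Without the highest exposed pup it was 2.06 percentage points. All 224 bases are coding, and all 22 CpGs of the island were reachable. Its plus-strand sequence is shown with CpGs in capitals because this stretch was the Pdx1 region with the largest difference.
Pdx1 coding island: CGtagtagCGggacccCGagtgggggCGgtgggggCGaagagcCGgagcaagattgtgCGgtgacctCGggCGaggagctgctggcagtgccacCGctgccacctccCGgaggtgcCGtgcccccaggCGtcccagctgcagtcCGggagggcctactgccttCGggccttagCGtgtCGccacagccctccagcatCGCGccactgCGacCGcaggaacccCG
The island at the Pdx1 start (chr5:147270138-147270628) was at 2.75% ± 1.69 (SD, n = 5) and 2.38% ± 2.19 (SD, n = 6). Over the whole Pdx1 gene row the difference was 0.713 percentage points (95% interval -1.87 to 3.30).

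The remaining islands at promoters were low in both groups. The largest, at Nkx6-1 (chr5:101663310-101665763), was at 3.62% ± 0.790 (SD, n = 5) and 3.06% ± 1.15 (SD, n = 6), with an interval of -0.810 to 1.93 percentage points. At Mafa (chr15:75746052-75748164) the levels were 2.76% ± 0.848 (SD, n = 5) and 2.81% ± 1.24 (SD, n = 6), with an interval of -1.52 to 1.42. These bounds were the tightest of the 21 islands, on mean coverage from 1114 to 1866. Nkx2-2 (chr2:147193860-147195194) measured 2.16% ± 1.93 (SD, n = 5) and 2.15% ± 1.31 (SD, n = 6). Pax6 had its start island (chr2:105668770-105669107) at 3.82% ± 2.0 (SD, n = 5) and 3.46% ± 3.5 (SD, n = 6), and Isl1 (chr13:116309561-116310265) at 5.15% ± 3.24 (SD, n = 5) and 4.81% ± 3.68 (SD, n = 6). For Neurog3 (chr10:62132779-62133047) the levels were 1.43% ± 1.98 (SD, n = 5) and 4.03% ± 7.97 (SD, n = 6), where 1 saline pup reached 20.0% and coverage fell to 10 in the least covered one. After the Pdx1 and Neurod1 islands, the next smallest p belonged to a Pax6 island in untranslated exon sequence (chr2:105675189-105675605), which was at 0% in all 5 exposed pups and at 2.97% ± 5.50 (SD, n = 6) in saline pups (adjusted p = 0.923).

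**Figure D2:**
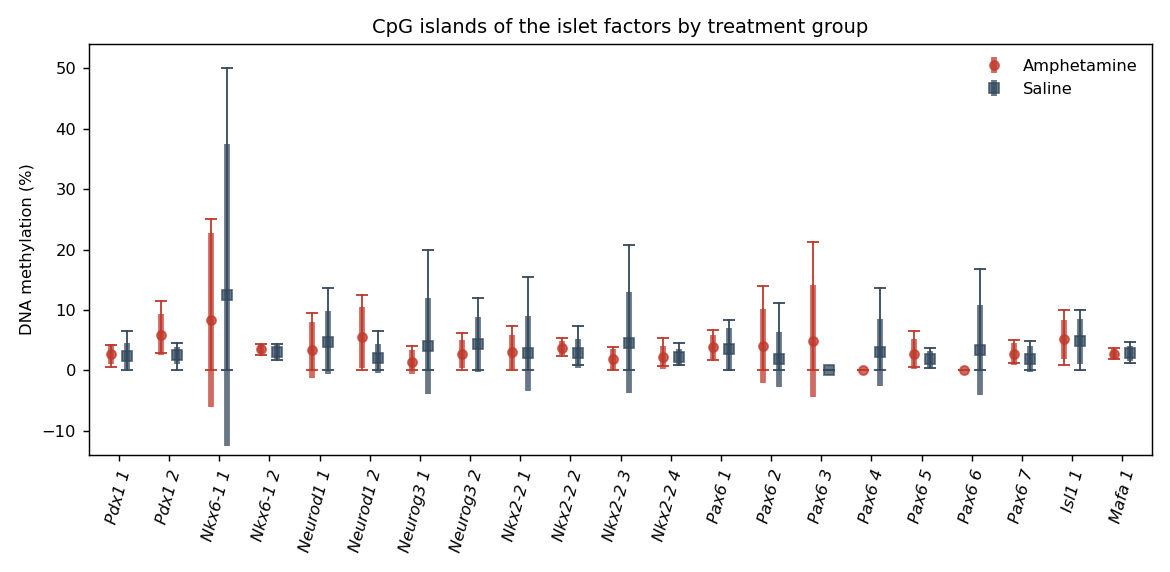
Methylation (%) of the 21 CpG islands, numbered per gene along the chromosome, in exposed (red circles) and saline pups (blue squares). Symbols are means, thick bars the SD, and capped thin lines the range over pups with reads. The ranges of both groups overlap in every island, and the widest bars belong to the first Nkx6-1 island, which had reads in 3 exposed and 4 saline pups.

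The 5000 bp tiles placed these levels in their surroundings. Of the 27 tiles, none passed the adjusted threshold (background 0.032% of 259709 tested tiles), and 1, the Pax4 tile described above, had an unadjusted p under 0.05 (background 4.41%). None of the 25 with reads in all pups had separated groups (background 0.351%). The median methylation of the 27 was 6.01%, against 83.4% over all tiles. Higher levels were found in both Pax4 tiles, and at the 3′ ends of Nkx2-2 and Pax6. The last Nkx2-2 tile (chr2:147175001-147180000) was at 62.5% ± 6.13 (SD, n = 5) and 60.8% ± 8.11 (SD, n = 6). Along Pax6, 5 consecutive tiles lay between 2.77% and 5.37%, after which the level was 38.3% ± 14.4 (SD, n = 5) and 24.9% ± 17.5 (SD, n = 6) in chr2:105690001-105695000, and 93.3% ± 9.29 (SD, n = 4) and 87.2% ± 12.1 (SD, n = 6) in the tile after that.

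None of the 8 start tiles with a row passed the adjusted threshold, and the groups overlapped in each. Their levels were 3.91% ± 0.926 against 3.19% ± 1.10 for Nkx6-1, 3.96% ± 1.84 against 5.24% ± 2.17 for Neurog3, and 2.71% ± 2.43 against 2.01% ± 0.539 for Nkx2-2 (SD, n = 5 exposed and n = 6 saline). Pax6 had 4.54% ± 0.789 against 2.99% ± 1.27, Isl1 5.34% ± 2.21 against 6.57% ± 5.49, and Mafa 2.75% ± 0.613 against 2.72% ± 1.01 (SD, same n). The Pax6 difference of 1.55 percentage points was larger than either SD (95% interval -1.27 to 4.37, adjusted p = 0.965). The start tile of Pax4 is the one described above, and the tile with the Pdx1 start has no row. The Nkx2-2 start tile lay wholly upstream of the protein-coding transcripts. The next smallest p after Pax4 belonged to a mostly intronic Isl1 tile (chr13:116300001-116305000), at 4.35% ± 8.82 (SD, n = 5) and 19.1% ± 14.1 (SD, n = 6), a difference of -14.8 percentage points (95% interval -30.4 to 0.793, adjusted p = 0.965). Its coverage fell to 7 in the least covered exposed pup. The third was the Pax6 tile at 38.3% and 24.9% described above, with a difference of 13.4 percentage points (interval -7.37 to 34.2).

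Of the genes, 7 sat within a run of tiles below 25% on average, a limit set after the values were seen. The run around the start measured 35 kb for Pax6, 20 kb for Nkx2-2 and Isl1, 15 kb for Nkx6-1 and Neurod1, and 10 kb for Neurog3 and Mafa. A run also ended where the next tile had no row, as for Nkx2-2, Isl1, Neurod1 and Neurog3, whose runs may be longer. The upstream end tile of the Neurod1 run had reads in only 3 exposed and 5 saline pups. Among 23605 promoter rows with a tile at the start, 15.5% had a run of at least 2 such tiles (10 kb), as all 7 genes did. A run of at least 3 (15 kb) was found for 3.84%. Pax4 had no such run, since both of its tiles exceeded 75%. For Pdx1 no run was counted because its start tile has no row, although its 2 tiles were low, at 4.44% and 10.6%. Beyond the genes, the median level of tiles within 25 kb was between 61.7% (Neurog3) and 94.1% (Nkx2-2).

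**Figure D3:**
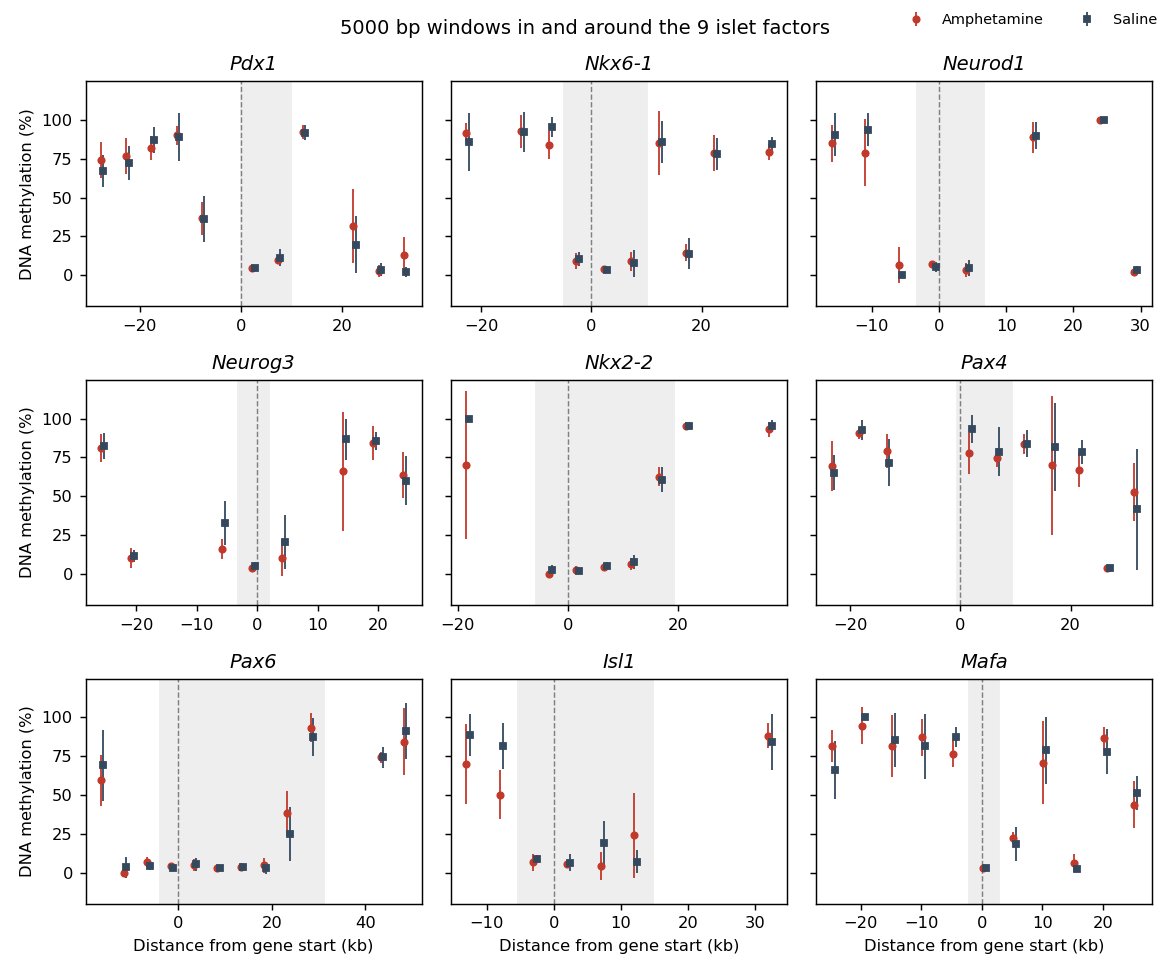
Methylation (%) of 5000 bp tiles against distance from the gene start (kb, positive in the direction of transcription) for each of the 9 genes, to 25 kb beyond the gene row. Circles (exposed) and squares (saline) are means with SD, and grey shading spans the tiles counted with the gene. Low levels around the start, at dashed lines, border on tiles above 60% for most genes, whereas Pax4 is high throughout the shaded part.

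In the 58 tiles flanking the genes, 31 means were lower and 26 higher in exposed pups. None passed the adjusted threshold, and 5 (8.62%) had an unadjusted p under 0.05, against the 4.41% background. Those 5, named after their values were seen, lay in the flanks of Isl1, Nkx6-1, Neurog3, Mafa and Pdx1. Upstream of Isl1 (chr13:116315001-116320000) exposed pups were at 50.3% ± 15.8 (SD, n = 5), from 25% to 66.1%, and saline pups at 81.7% ± 14.7 (SD, n = 6), from 59.8% to 100%. The difference of -31.4 percentage points (SE 8.78) had an adjusted p = 0.965. Upstream of Neurog3 (chr10:62125001-62130000) the levels were 16% ± 6.32 (SD, n = 5) and 33.0% ± 14.3 (SD, n = 6). For Nkx6-1 (chr5:101670001-101675000) they were 83.7% ± 8.80 (SD, n = 5) and 95.5% ± 6.39 (SD, n = 6), and for Mafa (chr15:75750001-75755000) 76.6% ± 8.72 (SD, n = 5) and 87.6% ± 6.52 (SD, n = 6). Downstream of Pdx1, in a tile centred 32.5 kb from the gene start (chr5:147300001-147305000), the order was the opposite. The levels there were 13.2% ± 11.6 (SD, n = 5) and 2.06% ± 3.01 (SD, n = 6). All 5 overlapped between groups and had an adjusted p of 0.965. The nearest covered tile upstream of each of the 9 genes was lower in exposed pups for 5 genes and higher for 4, with a median difference of -11.0 percentage points. The lower ones were the upstream tiles of Isl1, Neurog3, Nkx6-1 and Mafa named above, and that of Nkx2-2. The Nkx2-2 tile, centred 18.3 kb upstream, had reads in 4 exposed and 2 saline pups, on mean coverage of 2.0 and 0.333. The 4 higher ones differed by 0.639 (Pdx1) to 7.34 (Pax4) percentage points, and that of Neurod1 had reads in 3 exposed and 5 saline pups.

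Females and males were compared over the same 11 pups, so that the sex and treatment differences share all samples. None of the 8 promoters (background 0.595% of 24389 tested), 9 gene bodies (background 0.411%), 21 islands (background 1.1%) or 27 tiles (background 0.104%) passed an adjusted p under 0.05. An unadjusted p under 0.05 was found for 2 of 8 promoters (background 6.09%), 0 of 9 gene bodies (background 6.53%), 1 of 21 islands (background 6.65%) and 0 of 27 tiles (background 5.67%). The promoters were those of Neurog3 and Nkx2-2, in opposite directions.

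Neurog3 promoter methylation was 4.48% ± 2.93 (SD, n = 6) in females, from 0.210% to 8.33%, and 1.15% ± 1.6 (SD, n = 5) in males, from 0% to 3.29%. The difference of 3.33 percentage points (SE 1.46, 95% interval 0.0739 to 6.59) had an adjusted p = 0.816. Its gene body had the opposite sign, at 4.37% ± 2.41 (SD, n = 6) in females and 6.62% ± 3.36 (SD, n = 5) in males. For Nkx2-2 the promoter was at 1.19% ± 0.456 (SD, n = 6) in females and 3.04% ± 1.56 (SD, n = 5) in males, a difference of -1.84 percentage points (SE 0.739, 95% interval -3.5 to -0.193, adjusted p = 0.738). The Nkx2-2 island inside it shares most of these reads and measured 1.34% ± 0.519 (SD, n = 6) against 3.14% ± 1.82 (SD, n = 5). Neurod1, the promoter with the largest treatment difference, measured 9.65% ± 5.97 (SD, n = 6) in females and 7.60% ± 6.83 (SD, n = 5) in males (95% interval -6.24 to 10.3 percentage points). The Pax4 gene body was at 86.1% ± 11.6 (SD, n = 6) and 86.2% ± 16.5 (SD, n = 5). Whether the treatment difference depended on sex was not tested, since values per pup were not used here.

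**Figure D4:**
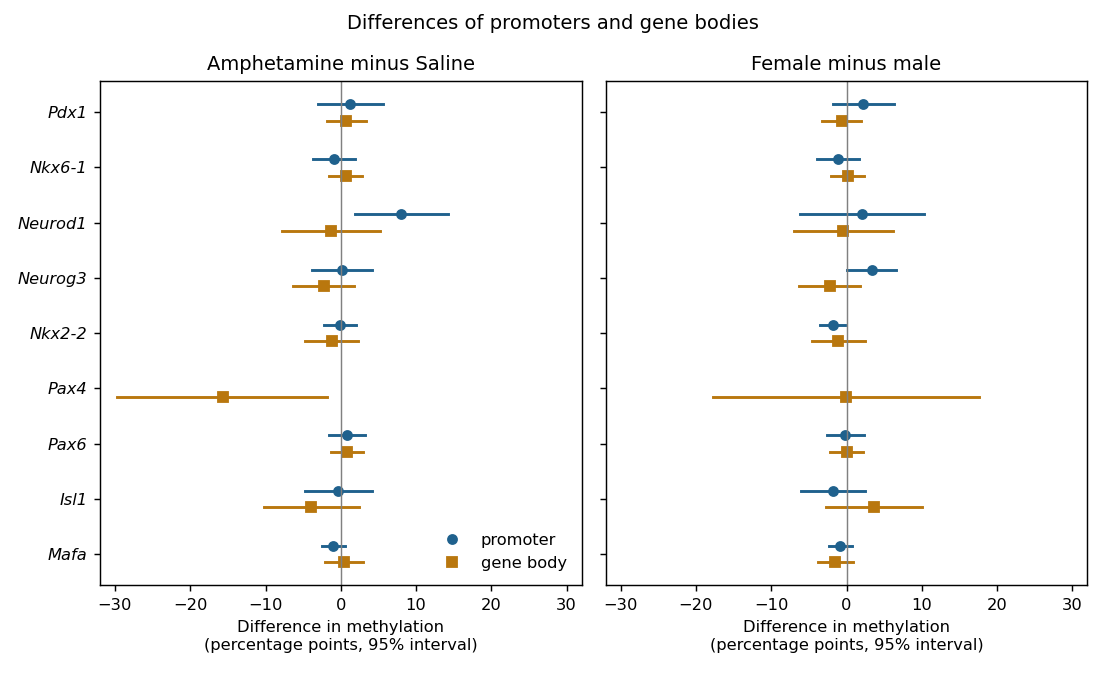
Differences in methylation (percentage points) between exposed and saline pups (left) and between females and males (right) for the promoters (blue circles) and gene bodies (orange squares) of the 9 genes. Horizontal lines are 95% intervals without correction for the number of regions. On the left the intervals of the Neurod1 promoter (8.04) and the Pax4 gene body (-15.7) leave out 0, on the right those of the Neurog3 (3.33) and Nkx2-2 (-1.84) promoters, and none of these passed the correction.

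Genes with related roles were set beside the 9. Of 16 other endocrine factors, such as Insm1, Fev and Rfx6, 15 had a promoter row. Their median promoter methylation was 3.21%, and 0 had an unadjusted p under 0.05 for treatment. Rfx3, a regulator of cilia and of islet differentiation, had the smallest p, at 3.32% ± 0.5 (SD, n = 5) in exposed and 2.24% ± 1.31 (SD, n = 6) in saline pups (adjusted p = 0.958). Of 14 progenitor and exocrine factors, 12 had a promoter row, with a median of 4.24%. Over gene rows the median was 11.8% for the other endocrine factors and 18.2% for the progenitor and exocrine factors. The 9 genes had 5.36%, so that low gene bodies, beside 53.1% over all gene rows, were not particular to them.

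Methylation could not check the tissue label as expression would. Promoters of 7 of 11 acinar genes, which encode digestive enzymes, had median group means of 67.2% in exposed and 69.0% in saline pups. Those of 4 of 7 islet hormone genes ranged from 0.758% to 99.0%. Of the 4, 2 had an unadjusted p under 0.05, in opposite directions (background 4.12% of promoters). Ppy, which encodes pancreatic polypeptide, was at 13.2% ± 13.1 (SD, n = 5) in exposed and 0.758% ± 1.86 (SD, n = 6) in saline pups. Ghrl, which encodes ghrelin, was at 88.5% ± 10.7 (SD, n = 5) and 99.0% ± 2.55 (SD, n = 6), and both had an adjusted p = 0.958 with mean coverage from 29.7 to 39.0. The promoters of 4 ductal, 4 mesenchymal, 4 endothelial, 1 blood and 2 spleen or liver genes had a row, and none of any list passed the adjusted threshold for treatment.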

How the data were processed

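Group summaries of RRBS in 11 pancreata were analysed, which the authors deposited as 8 tables (4 region classes, 2 comparisons). Reads were single-end 50 bp, aligned by the authors with Bismark (NextFlow methylseq) to mm10, and RnBeads summarised them per region (versions not given in the sources used here). The deposited methylation level of a group is a fraction, the authors' mean over mice with reads, given here in percent beside their SD, lowest and highest mouse. The deposited coverage is a group mean that was not scaled for depth. It was read as summed over CpGs, since none of 7620 islands wholly inside a promoter exceeded that promoter's coverage. Depth per mouse was not used here, and how CpGs were weighted within a region is not given in the sources used here, so that no counting interval is given. The authors' own differences, log2 quotients, p-values, adjusted p-values and ranks were not used.

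The two-group limma test (3.58.1, R 4.3.3) was rebuilt from each group's mean, SD and number of mice, two-sided and without covariates, with Benjamini-Hochberg adjustment over all rows of a table and a call at adjusted p under 0.05. On simulated data it gave the p-values of limma on single values. Intervals of 95% use limma's moderated error, uncorrected for the number of regions. The members, gene lists and sequences were chosen with earlier results of these data known. The text names every member's promoter and gene row, islands at promoters, tiles at gene starts, the 3 islands and 3 tiles of smallest p, and per list the promoter of smallest p, where some results are not reported here. Alternatives were a mean coverage of at least 10, reads in all mice, no X or Y chromosome, SDs above 0, a trended prior, an arcsine scale, an unadjusted p, a difference above 25 percentage points, regions mostly inside a promoter or gene row, other regions in place of the promoter, and leaving out the highest or lowest mouse. CpGs, cut sites and exons came from GRCm38 (RefSeq) and GENCODE M21. On all 21 chromosomes compared, the last tile ended no more than 5000 bp past the GRCm38 end. Python 3.11.15, pandas 2.3.3 and scipy 1.17.1 were used.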

Additional observations from a re-analysis of the deposited data

Results flagged for a closer look

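In 24 of 253 groups of pups examined over the regions of the 9 genes, the highest pup stood apart from the others of its group by more than Dixon's 95% critical value. This was judged from the deposited lowest, highest, mean and SD as the smallest gap they allow. Chance flags about 1 in 20 groups of normally distributed values. Many of these levels lie at or near 0, so that the count cannot be read against that rate. The groups are not independent, since each pup is counted once by treatment and once by sex and regions overlap.

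Of these, 17 were groups of CpG islands. At the Neurod1 start island 1 male stood at 8.04%, against a mean of 0.769% for the other males. In the Neurog3 upstream island 1 saline female stood at 20.0%, against 0.833% for the other saline pups. The islands of Nkx2-2 had 1 saline male each at 15.5% and at 20.8%. In the first Nkx6-1 island, 1 of 4 saline pups with reads was at 50% and the others at 0%, on a mean coverage of 6.00. The second Pax6 island had 1 saline pup at 11.1%, and among males 1 at 6.25%. For the third, an exposed female was at 21.2% and 1 male at 3.08%. The fourth had a saline female at 13.7% and 1 male at 4.17%. The fifth had 1 female at 4.25%, and the sixth 1 saline pup at 16.7%.

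The others were 1 promoter group and 6 tile groups. At the Pdx1 promoter 1 saline female stood at 10.1%, against a mean of 1.88% for the other saline pups. In the 2 Isl1 tiles 1 female was at 70.8% and 1 exposed pup at 20.1%. The Nkx2-2 tiles had 1 male at 6.84%, 1 exposed pup at 0.784% and 1 female at 2.78%. In the Pdx1 tile 1 male was at 17.8%, against 9.71% for the other males.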

How the results depend on the processing

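The counts of regions past an adjusted p under 0.05 were 0 for promoters, gene bodies, islands and tiles in both comparisons, and stayed 0 under every alternative fit. Only dropping the adjustment gave calls. For treatment an unadjusted p under 0.05 gave 1 promoter, 1 gene body, 1 island and 1 tile, and for sex 2 promoters and 1 island. Over the 6 other fits, the adjusted p of the Neurod1 promoter ranged from 0.507 to 0.998 and that of the Pax4 gene body from 0.789 to 0.996. Leaving out the highest or the lowest pup of either group moved the Neurod1 promoter difference between 6.44 and 9.79 percentage points and the Pax4 gene body difference between -21.3 and -13.0. Among the treatment differences, those of 3 of the 8 promoters (Neurog3, Nkx2-2 and Isl1) and 2 of the 9 gene bodies (Neurod1 and Mafa), 12 of 21 islands and 11 of 27 tiles could change sign this way. Among the islands named, that of Neurog3 moved between -3.41 and 0.592 percentage points. For sex, 1 promoter, 4 gene bodies, 9 islands and 9 tiles could. The pup left out differs between regions, so these are values with no test. No paired analysis was possible because the labels give no numbers shared between groups and the tables hold group values.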
